A study of Mus musculus with 6 samples.

Results

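The C/EBP transcription factor genes *Cebpa*, *Cebpb*, *Cebpd*, *Cebpe*, *Cebpg* and *Cebpz* and the repressor genes *Gfi1* and *Gfi1b* were followed in murine AML. They were chosen by symbol and make up 8 of the 41128 genes listed, and 7 of them were among the 9522 genes tested. KIT+Gr1+ leukemia cells of donor origin were sorted from the BM of 6 C57BL/6 mice, and their polyA RNA was sequenced with 1 library per mouse. In both cohorts KIT+ BM cells carrying retroviral *Hoxa9* had been transplanted into irradiated congenic recipients. *Hoxa9*/MTV cells (mice 1.1, 1.2 and 1.4) carried the empty vector MTV beside it, and *Hoxa9*/*IRX3* cells (mice 3.2, 3.3 and 3.5) a MYC-tagged human *IRX3* cDNA. No mouse of 1 cohort is a partner of a mouse of the other. Levels are the authors' RPKM, reads scaled by gene length and by library size. Library sizes worked out from the steps between low RPKM values were 8843083, 8305937 and 9672522 in mice 1.1, 1.2 and 1.4 and 8860734, 9803621 and 7979246 in mice 3.2, 3.3 and 3.5. Reads recovered with these sizes sum over genes to 104.0% to 105.4% of them, so sizes and read numbers given here are estimates.

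C/EBP proteins bind DNA as dimers through a basic leucine zipper and drive myeloid differentiation in sequence, with C/EBPalpha needed to form granulocyte and monocyte progenitors and C/EBPepsilon needed for late granulocyte maturation and secondary granules. GFI1 is a zinc finger repressor that recruits the histone demethylase LSD1 with its CoREST partners and favors granulocytic over monocytic fate. Its paralog GFI1B acts mainly in erythroid cells and megakaryocytes.

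*Gfi1* was the member with the largest difference between the cohorts. *Gfi1* (ENSMUSG00000029275; chr5:107716657-107726036 of GRCm38, minus strand) was at 28.4, 25.3 and 27.8 RPKM in *Hoxa9*/MTV mice, against 92.7, 94.4 and 82.4 RPKM in *Hoxa9*/*IRX3* mice. Every *Hoxa9*/*IRX3* mouse lay above every *Hoxa9*/MTV mouse, and within each cohort the highest mouse was only 1.12 and 1.15 times the lowest. The values rest on 1973 to 8684 reads per mouse. By qPCR of such sorted cells from larger cohorts, the paper reports a variable *Gfi1* increase with *IRX3* that was not significant. On the log2 scale *Gfi1* differed by 1.71 (SE 0.13, 95% confidence interval 1.38 to 2.03, adjusted p = 0.00298 by limma), fitted to log2(RPKM + 0.5), where the added 0.5 makes folds of faint genes too small. A gene is said to rise or fall where its adjusted p is under 0.05 and its change at least 2-fold. *Gfi1* rose in all 6 fits that each left out 1 mouse, with an adjusted p of up to 0.0311. It was the 1 member of 7 tested to pass both limits, where 3.13% of all tested genes did, 1.10% as higher and 2.03% as lower. In bulk RNA of sorted cells, fewer cells of a type and less RNA per cell cannot be told apart.

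*Gfi1b* (ENSMUSG00000026815; chr2:28609450-28621982, minus strand) was practically silent. It had 3, 0 and 2 reads in mice 1.1, 1.2 and 1.4 and 0 reads in each *Hoxa9*/*IRX3* mouse. A count of 3 reads, taken as the floor, corresponds to 0.0244 to 0.0300 RPKM for this gene, so that no fold change is given and no difference was detectable at this depth. Floors of this kind cover counting error only.

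The promoters of both repressor genes and of *Cebpa* are shown because *Gfi1* rose while its paralog had no more than 3 reads and *Cebpa* kept a high level in both cohorts. RefSeq promoters (GRCm38.p6, 250 bases before to 50 after the start) were found for 5 of the 8 members. Capitals mark the GFI1 core AATC in *Gfi1* and *Gfi1b* and the C/EBP half-site TTGCG in *Cebpa*, each on either strand.
Gfi1 promoter, chr5:107725756-107726055, minus strand: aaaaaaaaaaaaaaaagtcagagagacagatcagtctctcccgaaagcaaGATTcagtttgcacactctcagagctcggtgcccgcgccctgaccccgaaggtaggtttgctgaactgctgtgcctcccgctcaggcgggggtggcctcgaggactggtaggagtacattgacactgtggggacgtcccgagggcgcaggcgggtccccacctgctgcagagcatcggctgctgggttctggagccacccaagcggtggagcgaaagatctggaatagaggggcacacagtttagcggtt
Gfi1b promoter, chr2:28621933-28622232, minus strand: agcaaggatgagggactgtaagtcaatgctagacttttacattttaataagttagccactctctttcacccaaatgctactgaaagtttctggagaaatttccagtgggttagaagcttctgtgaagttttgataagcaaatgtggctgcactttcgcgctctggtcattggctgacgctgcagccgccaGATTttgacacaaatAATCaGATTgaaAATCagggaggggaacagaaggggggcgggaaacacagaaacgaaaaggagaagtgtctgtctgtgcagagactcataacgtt
Cebpa promoter, chr7:35119043-35119342, plus strand: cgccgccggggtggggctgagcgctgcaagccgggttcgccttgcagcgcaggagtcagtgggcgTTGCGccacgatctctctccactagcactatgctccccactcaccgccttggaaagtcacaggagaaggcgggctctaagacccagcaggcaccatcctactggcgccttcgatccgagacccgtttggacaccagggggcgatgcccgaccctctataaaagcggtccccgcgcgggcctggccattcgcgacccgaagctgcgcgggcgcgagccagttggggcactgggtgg
AATC was found at 4 places in the *Gfi1b* window and at 1 in that of *Gfi1*, and 73.1% of all 32851 promoters of this length hold it. A further RefSeq window of *Gfi1*, chr5:107724294-107724593, holds 0 of them. TTGCG was found once in the *Cebpa* window and is held by 17.4% of promoters. These matches are letters in a window and were not tested for binding.

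**Figure D1:**
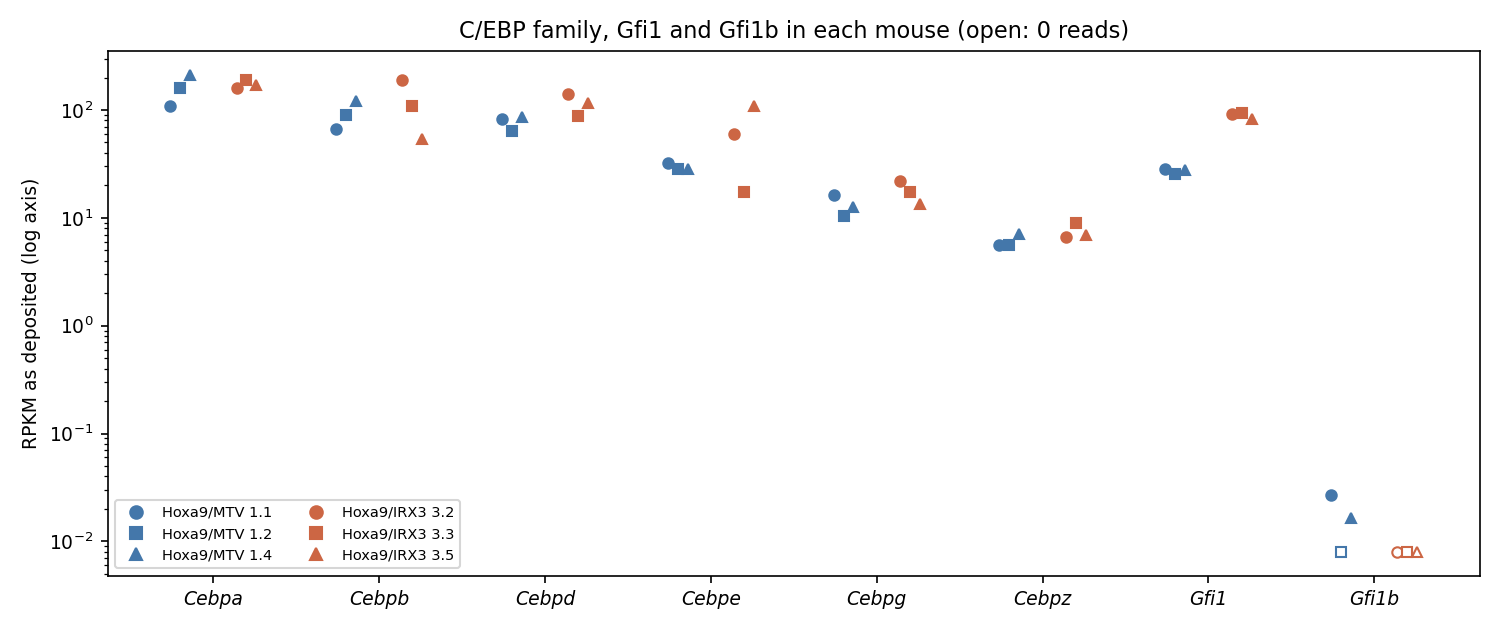
RPKM of the 8 genes in each mouse on a log axis, with 1 symbol per mouse, blue for *Hoxa9*/MTV and red for *Hoxa9*/*IRX3*. Open symbols at the bottom are mice with 0 reads. The *Gfi1* values of 82.4 to 94.4 in *Hoxa9*/*IRX3* mice lie above those of 25.3 to 28.4 in *Hoxa9*/MTV mice, and the *Cebpe* values of *Hoxa9*/*IRX3* mice spread from 17.4 to 109.

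Of the C/EBP genes that act early, *Cebpa* and *Cebpb* overlapped between the cohorts. *Cebpa* (ENSMUSG00000034957; chr7:35119293-35121928, plus strand, 1 exon) was at 109.8, 159 and 213 RPKM in *Hoxa9*/MTV mice, against 160.2, 191 and 169 RPKM in *Hoxa9*/*IRX3* mice. The *Hoxa9*/*IRX3* mice lay within the range of the others. The log2 difference between cohorts was 0.16 (SE 0.25, adjusted p = 0.727), and -0.09 without mouse 1.1. *Cebpb* (chr2:167688915-167690418, plus strand, 1 exon), which drives granulopoiesis under stress and macrophage genes, was at 66.2, 89.1 and 122 RPKM in *Hoxa9*/MTV mice, against 189, 109 and 53.5 RPKM in *Hoxa9*/*IRX3* mice. Both the highest and the lowest level were in *Hoxa9*/*IRX3* mice. This gave a log2 difference of 0.21 (SE 0.47, adjusted p = 0.815), which turned to -0.01 without mouse 1.1 and to -0.23 without mouse 3.2. *Tmem189* overlaps *Cebpb* by 908 bases on the opposite strand and was under 1 RPKM in all mice.

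*Cebpd* (chr16:15887286-15891031, plus strand, 1 exon), an acute phase factor, was at 83.2, 63.6 and 86.9 RPKM in *Hoxa9*/MTV mice, against 142, 88.6 and 117 RPKM in *Hoxa9*/*IRX3* mice. The cohorts did not overlap, but mice 1.4 and 3.3 were close together. Of the 7 tested members, 2 (*Gfi1* and *Cebpd*) had cohorts that did not overlap, as had 33.7% of all tested genes. For *Cebpd* the log2 difference was 0.55 (SE 0.22, adjusted p = 0.191), short of both limits. *Spidr* overlaps *Cebpd* by 1808 bases on the opposite strand and was at 0.138 to 0.270 RPKM over all mice.

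*Cebpe* varied most between mice. *Cebpe* (ENSMUSG00000052435; chr14:54710360-54712174, minus strand) was at 32.5, 28.4 and 28.4 RPKM in *Hoxa9*/MTV mice, against 59.5, 17.4 and 109 RPKM in *Hoxa9*/*IRX3* mice. Mice 3.2 and 3.5 lay above all *Hoxa9*/MTV mice and mouse 3.3 below them. The highest *Hoxa9*/*IRX3* mouse had 6.26 times the level of the lowest, against 1.14 times in *Hoxa9*/MTV. On the log2 scale the SD was 1.33 in *Hoxa9*/*IRX3* and 0.110 in *Hoxa9*/MTV mice, where the median over all tested genes was 0.242 and 0.121. The resulting log2 difference was 0.70 (SE 0.61, adjusted p = 0.514). Without mouse 3.3 it was 1.43 with an adjusted p of 0.0434, past both limits, and without mouse 3.5 it was 0.12 with an adjusted p of 0.908.

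*Cebpg* and *Cebpz* differed little. *Cebpg* (chr7:35046422-35056573, minus strand), a C/EBP protein without a strong activation domain that dimerizes with the others, was at 16.3, 10.4 and 12.7 RPKM in *Hoxa9*/MTV mice, against 22.1, 17.4 and 13.4 RPKM in *Hoxa9*/*IRX3* mice. The ranges overlapped (log2 fold change 0.40, SE 0.24, adjusted p = 0.343). *Cebpz* (chr17:78919006-78937066, minus strand) encodes a CCAAT-binding protein without a leucine zipper. It was at 5.62 to 7.03 RPKM in *Hoxa9*/MTV and 6.68 to 8.94 RPKM in *Hoxa9*/*IRX3* mice, a log2 difference of 0.27 (SE 0.16, adjusted p = 0.340). *Cebpzos* overlaps it by 1301 bases on the opposite strand, and since use of strand in counting is not given in the sources used here, reads of the 2 genes cannot be told apart there. The same holds for *Gfi1* and the noncoding *A430072P03Rik*, which overlaps it by 880 bases and was at 3.38 to 4.34 RPKM in *Hoxa9*/MTV and 4.03 to 4.92 RPKM in *Hoxa9*/*IRX3* mice. No tested gene within 50 kb of a member passed both limits. Apart from *Evi5*, expressed neighbors without overlap between the cohorts were *Eif2ak2* and the untested noncoding *Gm26637* near *Cebpz*, and *Gtf3c5* near *Gfi1b*. *Eif2ak2* was at 1.54 to 1.63 RPKM in *Hoxa9*/MTV and 1.96 to 3.21 RPKM in *Hoxa9*/*IRX3* mice (adjusted p = 0.116 by limma). *Gtf3c5* was at 1.08 to 1.61 and 1.71 to 2.08 RPKM (adjusted p = 0.178 by limma). Next to *Gfi1*, *Evi5* was at 0.496, 0.513 and 0.526 RPKM in *Hoxa9*/MTV and 0.449, 0.314 and 0.192 RPKM in *Hoxa9*/*IRX3* mice (log2 fold change -0.32, adjusted p = 0.266). *Evi5* passed the filter of 0.5 RPKM only through *Hoxa9*/MTV mice. It thus came into the test by its higher level there, and no conclusion is drawn from its test.

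**Figure D2:**
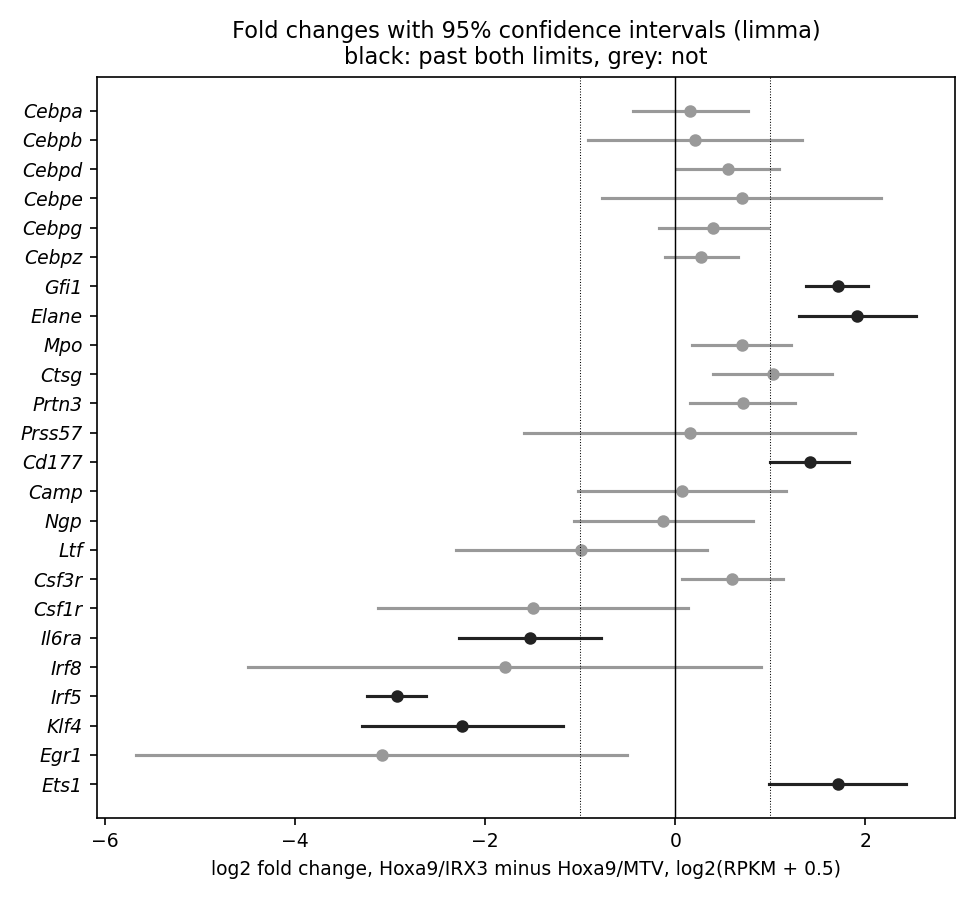
Log2 fold changes of *Hoxa9*/*IRX3* over *Hoxa9*/MTV cells on log2(RPKM + 0.5), with 95% confidence intervals from limma and dotted lines at 2-fold. Black marks genes past both limits, such as *Gfi1* at 1.71 and *Elane* at 1.91, and grey the others, among them the C/EBP genes.

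The deposited RPKM divide by the whole span of a gene with its introns, so levels were also set per kilobase of exon to compare genes. On the deposited scale *Cebpa* had the highest mean in both cohorts, and neighbors in the order had separate ranges at 4 of 7 steps in *Hoxa9*/MTV and at 2 of 7 steps in *Hoxa9*/*IRX3* cells. On the exon scale the order in *Hoxa9*/MTV cells was *Cebpa*, *Cebpb*, *Gfi1*, *Cebpd*, *Cebpe*, *Cebpg*, *Cebpz* and *Gfi1b*, and ranges were separate at 3 steps, between *Cebpd* and *Cebpe*, between *Cebpe* and *Cebpg* and above *Gfi1b*. In *Hoxa9*/*IRX3* cells *Gfi1* came first on the exon scale, at 264 ± 19.1 RPKM (SD, n = 3) against 80.0 ± 4.83 RPKM (SD, n = 3) in *Hoxa9*/MTV cells. Its lowest *Hoxa9*/*IRX3* mouse, at 243 RPKM, was above the highest value of *Cebpa* in this cohort, 191 RPKM. The genes below it overlapped with the next in order, apart from *Cebpz*, which lay above *Gfi1b*.

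Summed on the exon scale over the 5 leucine zipper genes, the C/EBP level was 336, 372 and 486 RPKM in *Hoxa9*/MTV mice and 618, 446 and 523 RPKM in *Hoxa9*/*IRX3* mice, with overlap. *Cebpa* held 32.7%, 42.7% and 43.7% of this sum in *Hoxa9*/MTV mice and 25.9%, 42.8% and 32.3% in *Hoxa9*/*IRX3* mice. *Cebpe* held 14.1%, 11.2% and 8.55% in *Hoxa9*/MTV mice and 14.1%, 5.71% and 30.5% in *Hoxa9*/*IRX3* mice. The make-up thus differed among *Hoxa9*/*IRX3* mice, with *Cebpb* leading at 30.6% in mouse 3.2 and down to 10.2% in mouse 3.5, while *Hoxa9*/MTV mice held between 19.7% and 25.1% of *Cebpb*.

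**Figure D3:**
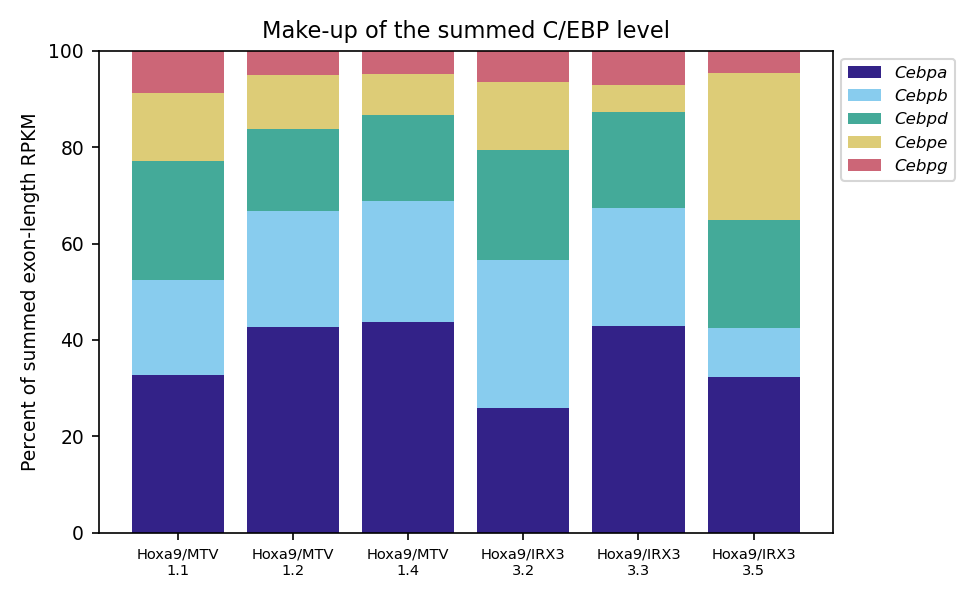
Percent of the summed exon-scale RPKM of *Cebpa*, *Cebpb*, *Cebpd*, *Cebpe* and *Cebpg* held by each gene, with 1 bar per mouse. *Cebpe* takes 30.5% in mouse 3.5 and 5.71% in mouse 3.3.

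Ratios between genes were taken on the deposited scale, unlike the shares. The ratio of *Cebpb* to *Cebpa* within a mouse was nearly the same in *Hoxa9*/MTV mice, with log2 ratios of -0.73, -0.83 and -0.80, and was 0.24, -0.80 and -1.66 in *Hoxa9*/*IRX3* mice. The cohort means differed by 0.05 (exact two-sided permutation p = 0.9), and by -0.44 without mouse 3.2. The log2 ratio of *Cebpe* to *Cebpa* was -1.76, -2.48 and -2.90 in *Hoxa9*/MTV and -1.43, -3.46 and -0.63 in *Hoxa9*/*IRX3* mice (difference 0.54, exact two-sided permutation p = 0.6), and the difference was -0.06 without mouse 3.5. GFI1 and IRF8 act on opposite sides of the choice between granulocyte and monocyte. The log2 ratio of *Gfi1* to *Irf8* was -0.48, -0.09 and 0.13 in *Hoxa9*/MTV mice and 5.15, 0.58 and 4.79 in *Hoxa9*/*IRX3* mice. The cohorts did not overlap (difference 3.66, exact two-sided permutation p = 0.1, the lowest p possible with 3 mice per cohort), but mouse 3.3 was close to *Hoxa9*/MTV mice, and the difference was 5.12 without it.

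Of 10 basic leucine zipper partners of C/EBP, 7 were tested, 0 rose and 1 fell, with a median log2 fold change of 0.03, beside -0.06 over all tested genes. *Tef*, a PAR zipper factor, fell from 3.01, 2.53 and 3.87 RPKM to 1.38, 0.518 and 0.974 RPKM (log2 fold change -1.35, SE 0.25, adjusted p = 0.0353), and passed both limits in 2 of the 6 fits without a mouse. *Hlf*, also a PAR zipper factor, stayed under the filter of 0.5 RPKM and was not tested, with 4, 0 and 18 reads in *Hoxa9*/MTV and 99, 247 and 178 reads in *Hoxa9*/*IRX3* mice, without overlap. *Atf4*, the most abundant by RPKM, overlapped at 115 to 181 and 95.5 to 163 RPKM (-0.13, but 0.08 without mouse 1.4 and 0.05 without mouse 3.5). *Atf5* was at 1.86 to 2.21 RPKM in *Hoxa9*/MTV and 2.88 to 13.0 RPKM in *Hoxa9*/*IRX3* mice (1.44, adjusted p = 0.123), and passed both limits without mouse 3.5 (1.95, adjusted p = 0.0305), but was at 0.95 (adjusted p = 0.115) without mouse 3.2. Of 8 regulators of C/EBP protein or mRNA, 4 were tested and none passed both limits by limma, with a median of -0.02. *Trib1*, which targets C/EBPalpha for degradation, was at 0.290, 0.367 and 0.882 RPKM in *Hoxa9*/MTV and 1.16, 1.11 and 2.43 RPKM in *Hoxa9*/*IRX3* mice (1.01, adjusted p = 0.111). *Calr* was at 293 to 306 and 264 to 366 RPKM, *Pcbp2* at 12.9 to 15.3 and 11.6 to 13.3 RPKM, and *Celf1* at 2.37 to 2.83 and 1.16 to 2.30 RPKM. Of 5 lineage partners, 4 were tested, 0 rose and 1 fell, with a median of -0.17. *Gata2* fell from 4.31, 2.95 and 5.84 RPKM to 0.198, 0.0155 and 0.773 RPKM (-2.62, SE 0.37, adjusted p = 0.0166, past both limits in 3 of the 6 fits). *Spi1*, *Runx1* and *Myc* did not pass, at -0.57, 0.54 and 0.24, where *Myc* was at -0.01 without mouse 1.2 and -0.23 without mouse 3.2, and *Gata1* was near 0.

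Of the 4 receptor genes with C/EBP sites, 0 rose and 1 fell, with a median of -0.95. *Il6ra* fell from 5.72, 5.28 and 5.00 RPKM to 2.13, 2.12 and 0.686 RPKM (-1.53, SE 0.31, adjusted p = 0.0447), past both limits in 3 of the 6 fits without a mouse. *Csf3r*, the G-CSF receptor, was at 7.60, 6.28 and 6.20 RPKM in *Hoxa9*/MTV and 11.7, 12.9 and 7.38 RPKM in *Hoxa9*/*IRX3* mice (0.60, adjusted p = 0.165). *Csf1r*, the M-CSF receptor, was at 5.82, 4.77 and 5.94 RPKM in *Hoxa9*/MTV and 0.790, 6.43 and 0.552 RPKM in *Hoxa9*/*IRX3* mice. Mouse 3.3 thus had the highest level of all, with a log2 fold change of -1.50 (adjusted p = 0.233), and -2.36 (adjusted p = 0.00406) without it. *Csf2ra* was at 35.2 to 40.7 and 19.2 to 39.0 RPKM.

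Among primary granule genes, which are made in promyelocytes, 5 of 6 were tested, 1 rose and 0 fell, with a median of 0.71. *Elane*, neutrophil elastase, rose from 715, 1053 and 614 RPKM to 3324, 3332 and 2237 RPKM. All *Hoxa9*/*IRX3* mice lay far above the others (1.91, SE 0.26, adjusted p = 0.0144), and it passed both limits in 4 of the 6 fits. *Ctsg* was at 368 to 464 and 659 to 1253 RPKM (1.03, adjusted p = 0.0741) and *Mpo* at 482 to 752 and 807 to 1135 RPKM (0.70, adjusted p = 0.115), each without overlap. With quantile normalization these 3 differences were smaller, at 1.31 for *Elane*, 0.78 for *Ctsg* and 0.13 for *Mpo*. Of the 10 secondary and tertiary granule genes that need C/EBPepsilon, 1 rose and 0 fell, with a median of -0.03. *Cd177* rose from 14.3, 16.6 and 13.7 RPKM to 35.9, 37.2 and 49.5 RPKM (1.42, SE 0.17, adjusted p = 0.0107, past both limits in 3 of the 6 fits). *Hp* was at 127 to 179 RPKM in *Hoxa9*/MTV and at 193, 795 and 304 RPKM in *Hoxa9*/*IRX3* mice (1.22, adjusted p = 0.194), and *Mmp9* had 1.29 (adjusted p = 0.137). *Ngp*, the most abundant by mean, was at 903, 1446 and 957 RPKM and at 1199, 543 and 1479.6 RPKM (-0.13, but 0.09 without mouse 1.2 and 0.31 without mouse 3.3). With quantile normalization the *Ngp* difference was -0.64. Mouse 3.3 was the lowest of all 6 mice for *Ngp* and 4 others of these 10 genes, as it was for 16.3% of all tested genes. The 4 others, named after their values were seen, are *Camp*, *Ltf*, *Chil3* and *Itgb2l*. *Camp* was at 58.0 RPKM in mouse 3.3 and at 112 to 210.1 RPKM elsewhere, and *Ltf* at 0.109 RPKM and at 1.33 to 2.94 RPKM elsewhere. *Lcn2* and *Hp* went the other way and were highest of all 6 mice there, at 85.0 and 795 RPKM. Of the 5 tested primary granule genes, mouse 3.3 was highest for *Elane*, *Ctsg* and *Prtn3*, at 3332, 1253 and 332 RPKM, and lowest for *Prss57*, at 2.88 RPKM. For *Elane* mouse 3.2 was practically level with it, at 3324 RPKM. The share of all tested genes that were highest in mouse 3.3 was not worked out. *Prss57* was at 18.7 and 25.7 RPKM in mice 3.2 and 3.5 (0.15, adjusted p = 0.920, and 1.06, adjusted p = 0.0371, without mouse 3.3).

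**Figure D4:**
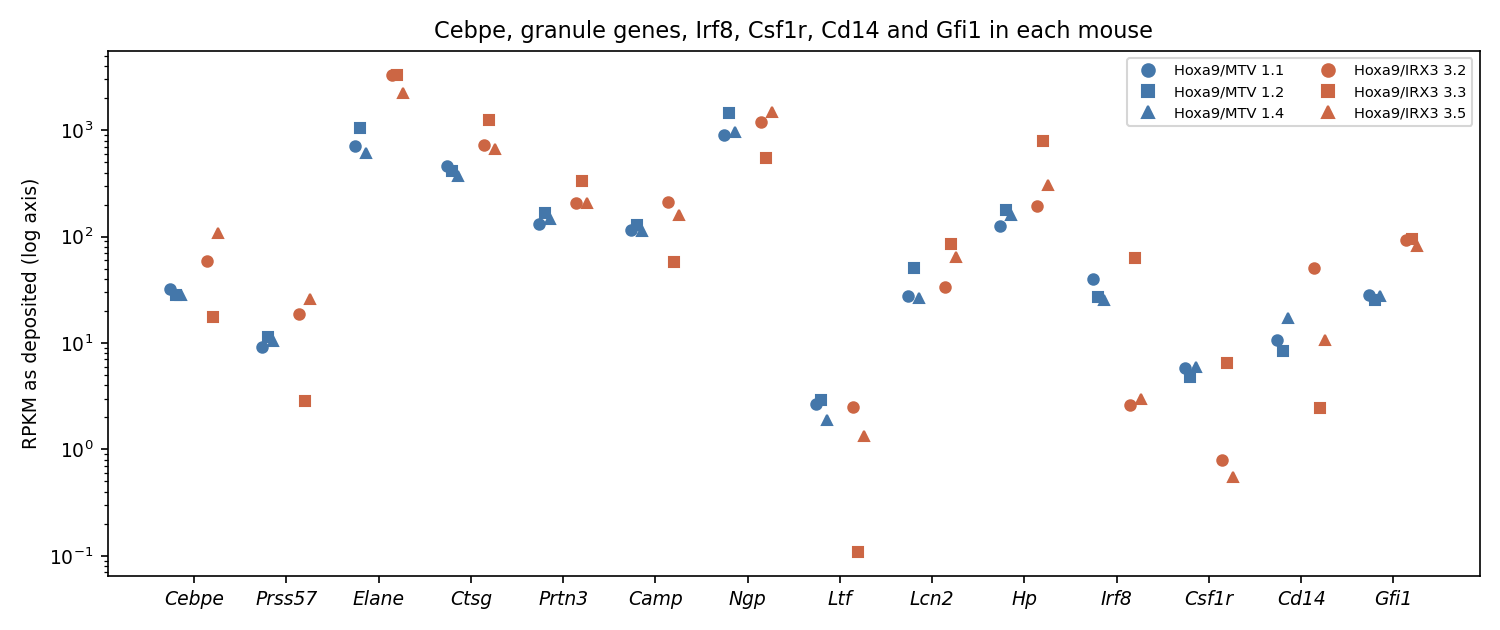
RPKM of *Cebpe*, granule genes, *Irf8*, *Csf1r*, *Cd14* and *Gfi1* in each mouse on a log axis, with 1 symbol per mouse and genes picked after their values were seen. Mouse 3.3 (red squares) is lowest for *Cebpe* at 17.4, *Camp* at 58.0 and *Cd14* at 2.45, and highest for *Elane* at 3332, *Hp* at 795, *Irf8* at 63.1 and *Gfi1* at 94.4. For *Elane* mouse 3.2 is practically level with it, at 3324.

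Of 13 genes of the GFI1 corepressor complex, 10 were tested and none passed both limits by limma, with a median of 0.00. *Ehmt2*, the most abundant, was at 10.2 to 10.7 RPKM in *Hoxa9*/MTV and 5.54 to 8.70 RPKM in *Hoxa9*/*IRX3* mice (-0.52, adjusted p = 0.138), and *Hmg20b* at 5.15 to 5.68 and 2.69 to 5.57 RPKM. Of the genes known to be repressed by GFI1, 10 were tested, 1 rose and 0 fell, with a median of -0.48. Of the 10, 1 was above 0, where 42.5% of all tested genes were, but *Cdkn1a* (-0.02) and *Csf1* (-0.26) changed sign among the fits without a mouse, with up to 0.34 and 0.06. *Ets1* rose from 0.660, 0.340 and 0.473 RPKM to 2.28, 1.84 and 4.63 RPKM (1.71, SE 0.30, adjusted p = 0.0304, past both limits in 3 of the 6 fits). *Meis1* was at 0.332, 0.344 and 0.872 RPKM in *Hoxa9*/MTV mice and had 0 reads in each *Hoxa9*/*IRX3* mouse. Its log2 difference of -0.98 (adjusted p = 0.0631) is held down by the added 0.5 and stayed just short of both limits. *Meis1* and *Egr2* passed the filter of 0.5 RPKM only through mouse 1.4, and so came into the test by their high *Hoxa9*/MTV level. No conclusion is drawn from their tests. The count of signs and the median of this list include both genes, so no conclusion is drawn from these either. *Irf8* was at 39.6, 27.0 and 25.5 RPKM in *Hoxa9*/MTV and at 2.61, 63.1 and 2.98 RPKM in *Hoxa9*/*IRX3* mice (-1.79, adjusted p = 0.367, and -3.22, adjusted p = 0.00430, without mouse 3.3). *Egr1* was at 28.9, 25.0 and 58.5 RPKM and at 5.66, 15.6 and 0.219 RPKM without overlap (-3.09, adjusted p = 0.147). Its difference was -4.07 without mouse 3.3 and -1.83 without mouse 3.5. *Id1* overlapped at 34.4 to 109.7 and 18.7 to 107 RPKM (-0.28, but 0.17 without mouse 1.4 and 0.40 without mouse 3.5).

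Of the 8 transcription factors of the monocyte side, which share 4 genes with the preceding list, 0 rose and 2 fell, with a median of -1.56. This median includes *Egr2*, which came into the test by its *Hoxa9*/MTV level. The genes that fell were *Irf5* (-2.93, adjusted p = 0.000502), past both limits in all 6 fits, and *Klf4* (-2.24, adjusted p = 0.0391), in 2 of them.

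Of 5 genes for the markers used in sorting, 4 were tested, 1 rose and 0 fell, with a median of 0.35. *Kit* was at 2.48 to 3.12 RPKM in *Hoxa9*/MTV and 1.63 to 2.70 RPKM in *Hoxa9*/*IRX3* mice, and *Ptprc*, which encodes CD45, at 1.53 to 1.80 and 1.76 to 2.09 RPKM. The Gr1 antibody sees products of *Ly6g* and *Ly6c* genes, whose similar sequences can exchange reads. *Ly6c2* was at 413 to 479 and 414 to 844 RPKM, *Ly6c1* near 0, and *Ly6g* rose from 0.145, 0.124 and 0.0532 RPKM to 1.42, 0.682 and 1.13 RPKM (1.35, adjusted p = 0.0205, past both limits in 3 of the 6 fits). *Ly6g* had only 5, 4 and 2 reads in mice 1.1, 1.2 and 1.4 and passed the filter only through the *Hoxa9*/*IRX3* mice. It thus came into the test by its higher level there, and no conclusion is drawn from its test. It missed the limit on p alone with voom on recovered reads, and the limit on fold alone with 1 RPKM added in place of 0.5. *Hoxa9*, whose endogenous and retroviral reads are counted together, was at 340.1, 363 and 174 RPKM in *Hoxa9*/MTV and 242, 154 and 221 RPKM in *Hoxa9*/*IRX3* mice, and reads counted on mouse *Irx3*, which need not follow the level of the human cDNA, gave 0 RPKM in all *Hoxa9*/MTV mice and 15.1, 0.421 and 0.148 RPKM in mice 3.2, 3.3 and 3.5.

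Of 7 neutrophil markers, 6 were tested, 2 rose (*Ly6g* and *Retnlg*, each in 3 of the 6 fits) and 0 fell. *Ly6g* came into the test by its *Hoxa9*/*IRX3* level, so no conclusion is drawn from its rise. The neutrophil markers summed to 461, 596 and 422 RPKM in *Hoxa9*/MTV and 621, 492 and 1693 RPKM in *Hoxa9*/*IRX3* mice, led by *S100a8*. Their sum was highest in mouse 3.5, as was *Cebpe*. Of 6 monocyte and macrophage markers, 4 were tested, 0 rose and 1 fell (*Ccr2*, in 4 of the 6 fits), with sums of 41.1, 34.2 and 51.8 RPKM and of 57.4, 14.1 and 18.3 RPKM. *Ccr2* led in the *Hoxa9*/MTV mice, *Cd14* in mice 3.2 and 3.5 and *Csf1r* in mouse 3.3. In mouse 3.3 *Csf1r* was highest of all 6 mice, while *Cd14*, *Ccr2* and *Emr1* were lowest, at 2.45, 3.69 and 0.0523 RPKM. Of 6 mast cell and basophil markers, 4 were tested, 0 rose and 2 fell (*Gata2* in 3 and *Cpa3* in 1 of the 6 fits), with sums of 14.5, 17.4 and 20.3 RPKM and of 4.51, 7.31 and 6.51 RPKM, led by *Mcpt8*, and *Fcer1a* was at 0. *Cpa3* passed the filter only through *Hoxa9*/MTV mice, so no conclusion is drawn from its test. *Ms4a2* went the other way, at 0.290, 0.279 and 0.542 RPKM in *Hoxa9*/MTV and 1.09, 0.610 and 0.933 RPKM in *Hoxa9*/*IRX3* mice. Its log2 fold change was 0.66 (adjusted p = 0.103 by limma). The part of these cells in the levels of *Gfi1* and *Cebpe* was not tested. Of 5 B cell markers only *Cd79b* was tested and fell, past both limits in just 1 of the 6 fits, with sums of 6.26, 7.10 and 7.13 RPKM and of 0.588, 0.276 and 2.31 RPKM, and *Pax5* was at 0. Of 6 megakaryocyte, 4 eosinophil and 4 T cell markers measured, 1, 0 and 0 were tested, and the gene tested did not pass. Their sums stayed under 1 RPKM in every mouse, with *Gp9*, *Prg2* and *Lck* highest by mean over the mice, and *Ppbp*, *Epx* and *Cd3d* were at 0. The globin genes *Hbb-bt* and *Hba-a1* were also at 0, and have near-identical copies whose reads can be lost to the quality filter.

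Over the 6 mice the tested genes most like *Cebpe*, by Pearson's r on log2(RPKM + 0.5) among the 2537 genes that averaged 5 RPKM or more, were *Nkg7* (0.984), *Vat1* (0.982) and *Rpl7* (0.982). *Nkg7* was at 32.9, 32.8 and 22.6 RPKM in *Hoxa9*/MTV and at 100.2, 14.9 and 482 RPKM in *Hoxa9*/*IRX3* mice, lowest in mouse 3.3 and highest in mouse 3.5 as was *Cebpe*. Most like *Gfi1* were *Rpl13a* (0.997), *Snapin* (0.996) and *Slk* (0.995), each with 2 separate clusters of 3 mice, so that r here restates the difference between cohorts. Most like *Cebpa* were *Actg1* (0.955), *Mrpl12* (0.864) and *Paf1* (0.854). *Rpl7*, *Rpl13a* and *Actg1* have many processed copies that can take reads.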

How the data were processed

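RNA of sorted KIT+Gr1+ cells of 6 mice was analyzed, grouped by the sample titles into 2 cohorts of 3. The authors sequenced paired ends of 75 bases from strand-specific polyA libraries, aligned them to GRCm38 with Bowtie2 2.2.1, removed low-quality alignments with SAMtools 0.1.19, and deposited RPKM per gene. Reads were recovered from the steps between low RPKM values and were whole within 0.01 for 65.0% of tested genes. Protein-coding genes over 0.5 RPKM in at least 1 mouse were fitted with limma 3.58.1 in R 4.3.3 (lmFit, eBayes with a variance trend) on log2(RPKM + 0.5), with Benjamini-Hochberg adjustment over all 9522. The limits were an adjusted p under 0.05 and a 2-fold change. Types, spans and exons came from GENCODE M21, which has 40254 of the listed genes. Ratios were tested with scipy 1.17.1.

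The members and lists were chosen with earlier results of these data known. The rule named all members, introduced genes, sort markers and lineage partners, of each other list the 2 most abundant tested genes, the 2 with the largest change that averaged 1 RPKM or more and any past both limits, expressed neighbors within 50 kb, and the 3 genes most like *Cebpa*, *Cebpe* and *Gfi1*. Expressed neighbors whose cohorts overlapped are given as a group, unless they overlap a member. *Siglecf* was not analysed here. Alternatives were other pseudocounts, filters, scalings, variance models and lengths, voom on recovered reads, all gene types, the study's criterion, and leaving out each mouse. The study's criterion was an unpaired t-test on RPKM with an unadjusted p under 0.05, and a 2-fold ratio of means.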

Additional observations from a re-analysis of the deposited data

How the results depend on the processing

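*Gfi1* kept its direction and passed both limits under all alternatives, with log2 fold changes of 1.66 to 1.81. Under the study's criterion the limit on p was set on an unadjusted p. *Gfi1* was the 1 member past both limits in each alternative, except with a mouse left out. That gave 1 to 2 members, with *Cebpe* as the second without mouse 3.3. Across the 6 fits without a mouse, the log2 fold change ranged from -0.09 to 0.39 for *Cebpa*, from -0.23 to 0.68 for *Cebpb* and from 0.12 to 1.43 for *Cebpe*. It ranged from -0.33 to 0.08 for *Atf4*, from -0.84 to 0.40 for *Id1*, from -0.23 to 0.53 for *Myc* and from -0.42 to 0.31 for *Ngp*, all crossing 0. The ratio of *Cebpe* to *Cebpa* differed by -0.06 to 1.35, that of *Cebpb* to *Cebpa* by -0.44 to 0.51 and that of *Gfi1* to *Irf8* by 2.83 to 5.12. The genes past both limits over all genes tested were 298. The count was 175 with no filter beyond a value above 0, 552 with exon length and 61 to 415 with a mouse left out. It was 664 with the study's criterion applied to the same 9522 genes. That criterion uses an unadjusted p, so its count is not comparable with the others. Of the genes in the lists other than members, introduced genes and cell type markers, 9 passed, *Ly6g* among them. The count was 4 with no filter, 5 with voom on recovered reads, 5 with genes of all types and 1 to 11 with a mouse left out. Calls of named genes ended for *Elane*, *Ets1*, *Il6ra*, *Klf4* and *Tef* with no filter, for *Ets1*, *Il6ra*, *Klf4* and *Tef* with genes of all types, for *Gata2*, *Il6ra*, *Klf4* and *Ly6g* with voom, for *Il6ra* and *Klf4* with a pseudocount of 0.1, for *Ly6g* with 1, and for *Il6ra* with exon length. The steps with separate ranges in the order of levels numbered 5 to 7 in *Hoxa9*/MTV and 3 to 4 in *Hoxa9*/*IRX3* cells with a mouse left out. A range over fewer mice cannot be wider, so these numbers of steps are not comparable with those over all mice. The cause of the other changes was not tested. Under the study's criterion *Irx3* gave no fold, since its *Hoxa9*/MTV mean is 0. Leaving out mice for the C/EBP shares was chosen after seeing the data. No paired analysis was possible because the cohorts share no mouse numbers. Levels of no more than 3 reads, as of *Gfi1b*, were below what this depth can compare.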
